A study of Mus musculus with 7 samples.

Results

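The genes described here carry the insulin signal from the receptor at the muscle cell surface to the kinase Akt and on to the TOR pathway: Insr, Irs1, Irs2, Grb10, Grb14, Pik3ca, Pik3r1, Akt1, Akt2 and Tsc2. They were measured in the soleus, a postural muscle of the mouse hindlimb, on 4 arrays from Yin Yang 1 (Yy1) knockout mice and 3 arrays from wild type mice, all aged 6 months, with C57Bl/6 and 129 mixed in their background. Their probe sets were taken by name: every probe set whose platform annotation gave exactly 1 gene symbol, where that symbol was one of the 10. That gave 18 probe sets for the 10 genes, of 22626 probe sets in all. Yy1 encodes a zinc finger transcription factor, and the study is known to have asked how its loss in muscle bears on insulin and IGF signalling. The labels do not say which part of Yy1 was removed, in which cells or by which driver, or whether 1 array stands for 1 animal.

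When insulin binds, the insulin receptor (Insr) phosphorylates the substrates Irs1 and Irs2, which recruit phosphoinositide 3-kinase, made of a catalytic subunit (such as Pik3ca) and a regulatory subunit (such as Pik3r1). The lipid it makes brings Akt1 and Akt2 to the membrane, where they are activated. Akt then lets glucose transporters reach the surface, favours glycogen synthesis and inhibits tuberin (Tsc2), a brake on the TOR kinase. Grb10 and Grb14 are related adaptors that bind the active receptor and restrain it. Muscle takes up a large part of the glucose cleared after a meal by this route.

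Yy1 itself was lower in the arrays labelled knockout. The probe set brightest in wild type (1422569_at) measured 8.41, 7.83, 7.83 and 8.10 log2 units in knockout, against 9.86, 9.67 and 9.71 in wild type. Its log2 fold change was -1.70 (SE 0.14, adjusted p = 0.00012, limma). Of the other 3 probe sets of Yy1, 1435824_at changed by -1.02 (SE 0.11), 1422570_at by -0.77 (SE 0.15) and 1457834_at, the dimmest, by -0.06 (SE 0.11, adjusted p = 0.711, limma). All levels are log2(intensity + 1), and each log2 fold change is the knockout mean minus the wild type mean with its standard error (SE) from limma. Adjusted p-values are Benjamini-Hochberg values, and 0.05 is the threshold for writing that a transcript rose or fell. The genotypes differed widely: the leading principal component held 74.9% of the variance, with knockout arrays at 15.6 to 33.8 and wild type arrays at -35.8 to -32.5. Knockout array 1 lay nearest to wild type.

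Of the 18 probe sets, 8 were higher in knockout, 4 were lower and 6 did not pass the threshold. Over all probe sets, 14.3% were higher and 14.3% lower, 28.6% together. The genotypes did not overlap in 13 of the 18, with knockout above wild type in 8 and below it in 5, where 18.4% and 17.9% of all probe sets did so, or 36.4% in all. Without wild type array 1, 2 probe sets were lower, and over all probe sets 2626 were lower instead of 3237. In a two-sided exact permutation test of each probe set over the 35 divisions of the 7 arrays, 11 of the 18 reached 0.0286, the smallest p the design allows. How many of all probe sets reach it was not counted, so the 11 cannot be set against a share. The median log2 fold change was 0.12, against 0.0069 over all probe sets. The median size of the log2 fold change was 0.30, against 0.14 over all probe sets. The 10 genes were chosen with earlier results of these data known, and probe sets of 1 gene share their target, so these counts describe the family and do not set it apart. Grb14 was the one member whose level changed by more than 2-fold, as 3.24% of all probe sets did. Soleus RNA comes from fibres and other cells together, so fewer cells of a type and less RNA per cell cannot be told apart.

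**Figure D1:**
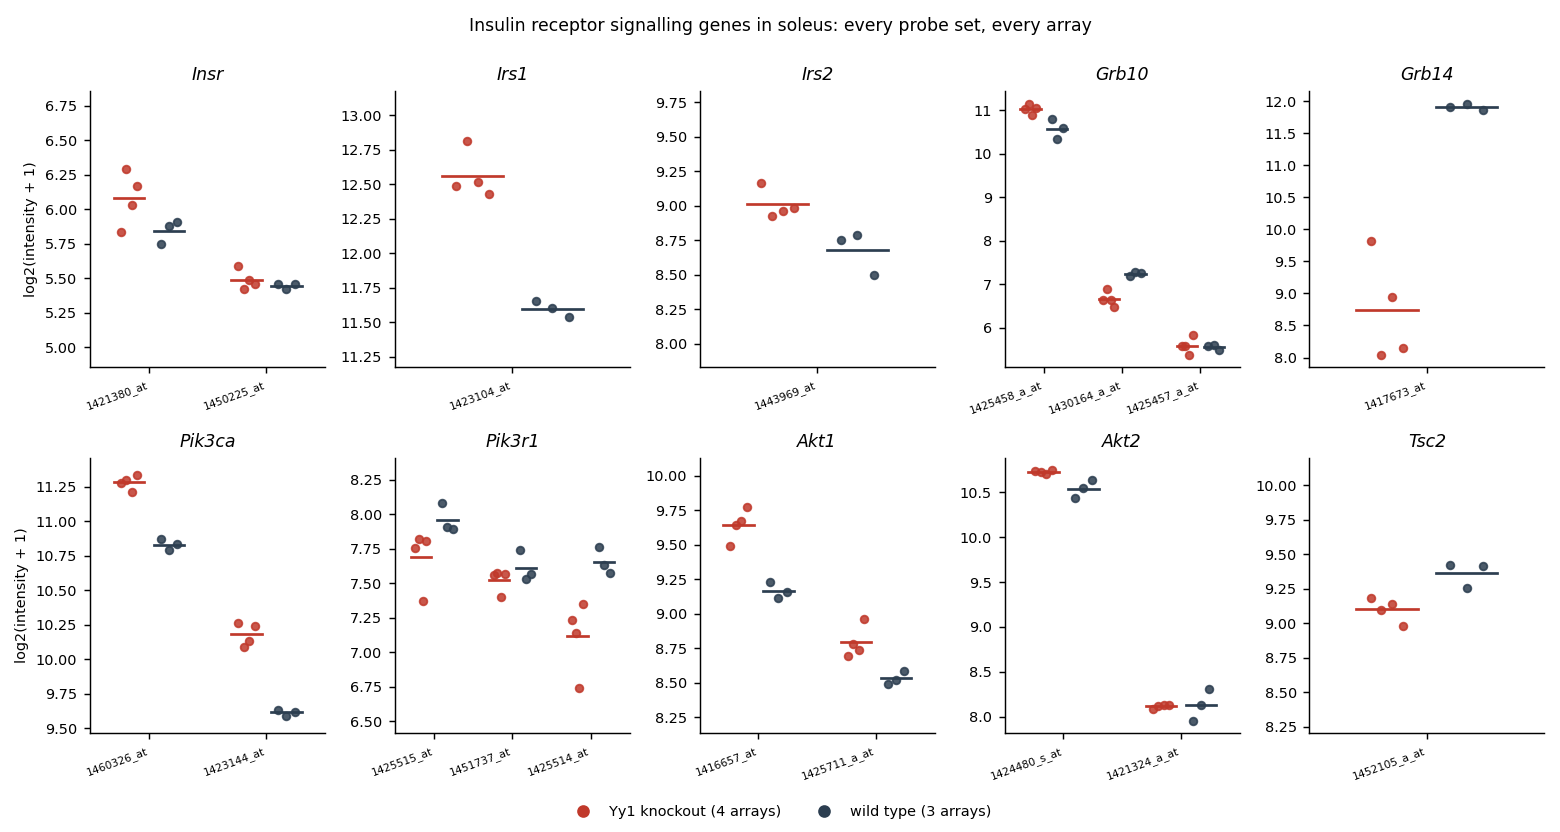
Level of each of the 18 probe sets on each array, as log2(intensity + 1) on the vertical axis, with Yy1 knockout (red, 4 arrays) left of wild type (dark, 3 arrays). Horizontal lines are group means, and each panel has its own vertical range. Grb14 lies between 8.05 and 9.82 in knockout and between 11.86 and 11.96 in wild type, while Irs1 lies higher in every knockout array.

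The receptor transcript showed no difference that passed the threshold. Insr probe set 1421380_at measured 5.83, 6.29, 6.03 and 6.17 in knockout, against 5.74, 5.88 and 5.90 in wild type. The groups overlapped, since knockout array 1 lay below 2 wild type arrays, and the log2 fold change was 0.24 (95% interval -0.0035 to 0.48, adjusted p = 0.132, limma). Without knockout array 1 it was 0.32 and passed (adjusted p = 0.0277, limma). The second probe set, 1450225_at, measured 5.42 to 5.59 in knockout and 5.42 to 5.46 in wild type, with a log2 fold change of 0.04 (95% interval -0.09 to 0.17, adjusted p = 0.619, limma). Both probe sets were dim: only 34.8% and 27.3% of all probe sets had a mean at or below theirs, and such low signals limit what they can show of Insr.

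Both receptor substrates rose, Irs1 by more than Irs2. Irs1 (1423104_at), the main substrate for glucose uptake in muscle, measured 12.49, 12.81, 12.51 and 12.43 in knockout, against 11.65, 11.60 and 11.54 in wild type. Every knockout array lay above every wild type array, and the log2 fold change was 0.96 (SE 0.09, adjusted p = 0.000221, limma), or 1.95-fold. Knockout array 2 was the highest. Irs2 (1443969_at), the second widely used substrate, measured 9.16, 8.93, 8.96 and 8.99 in knockout, against 8.75, 8.79 and 8.50 in wild type. It rose by 0.33 (SE 0.09, adjusted p = 0.0245, limma), or 1.26-fold, with no overlap of the genotypes. Without wild type array 3, the lowest, its log2 fold change was 0.24 and missed the threshold (adjusted p = 0.0765, limma).

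The promoters of the substrate genes are shown because they share a sequence feature, picked on reading them, and that of Grb14 because its transcript changed most. RefSeq promoter windows of build GRCm38.p6 were matched for 9 of the 10 genes (15 windows), and the 250 bases before the start site were searched on both strands. The windows printed are chr1:82291440-82291689 for Irs1, chr8:11008930-11009179 for Irs2 and chr2:65022767-65023016 for Grb14, all on the minus strand and written 5′ to 3′ along the gene. Capitals mark CACGTG, the E-box read by basic helix-loop-helix factors, and TGTTTTG, a form of the insulin response element read by FoxO factors.
Irs1: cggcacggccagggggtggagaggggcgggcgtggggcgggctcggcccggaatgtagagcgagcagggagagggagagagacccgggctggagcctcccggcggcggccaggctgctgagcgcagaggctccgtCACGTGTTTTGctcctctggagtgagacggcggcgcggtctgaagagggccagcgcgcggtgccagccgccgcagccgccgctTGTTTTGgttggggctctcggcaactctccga
Irs2: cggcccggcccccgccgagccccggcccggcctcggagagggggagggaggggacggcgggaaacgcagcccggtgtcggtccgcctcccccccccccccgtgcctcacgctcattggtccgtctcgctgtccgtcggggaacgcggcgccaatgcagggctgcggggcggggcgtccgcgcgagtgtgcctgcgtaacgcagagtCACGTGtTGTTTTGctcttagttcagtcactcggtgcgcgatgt
Grb14: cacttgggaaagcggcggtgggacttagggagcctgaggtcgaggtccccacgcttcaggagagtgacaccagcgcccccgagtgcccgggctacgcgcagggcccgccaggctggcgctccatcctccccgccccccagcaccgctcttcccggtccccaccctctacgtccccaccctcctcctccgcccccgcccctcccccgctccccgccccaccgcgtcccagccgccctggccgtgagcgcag

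In Irs1 the E-box spans positions -115 to -110 from the start site and the TGTTTTG element -111 to -105, so that they overlap, and a second TGTTTTG spans -32 to -26. In Irs2 the E-box spans -44 to -39 and the TGTTTTG element -37 to -31. Among 32851 promoter windows, 6.02% held CACGTG, 5.56% held TGTTTTG and 0.295% (97 windows) held both. Of the 15 windows of these genes, those of Irs1 and Irs2 held both, and no other held either. These letters were searched after the sequences had been read, so the shares over all windows do not measure how unusual the match is. A form of the YY1 motif, GCCATNTT, was in none of the 15 windows and in 3.91% of all windows. Its shorter core CCATNTT, contained in it, was in 1 of the 15, an alternative start of Grb10, and in 12.4% of all. A match is not a binding site, and a window without one says only that these letters are not in it.

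The inhibitory adaptor Grb14 fell further than any other of the 10 genes. It measured 9.82, 8.05, 8.95 and 8.15 in knockout (1417673_at), against 11.90, 11.96 and 11.86 in wild type. The log2 fold change was -3.16 (SE 0.38, 95% interval -4.04 to -2.29, adjusted p = 0.000565, limma), which left 11.2% of the wild type signal. Among the falls of all probe sets it was the 3rd largest in size. The genotypes lay far apart, and the knockout arrays spread widely among themselves, with an SD of 0.83 against 0.05 in wild type. The median SD over all probe sets was 0.10 in knockout and 0.08 in wild type, and 99.9% of probe sets had an SD in knockout no larger than that of Grb14.

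The knockout array with the most Grb14, array 1, also had the highest level of Yy1 1422569_at. Array 2 had the least Grb14 and shared the lowest Yy1 level of 7.83 with array 3, while arrays 3 and 4 stood in opposite order for the pair. The probe sets of Yy1 ordered the knockout arrays differently. Yy1 1422570_at was also highest in array 1 (6.19), but 1435824_at was highest in array 3 (8.48, against 8.39 in array 1). The dimmest, 1457834_at, was lowest in array 1 (5.07). With 4 arrays this is a description and no correlation was computed. By Euclidean distance over the 7 arrays after subtraction of each gene's wild type mean, the genes nearest to Grb14 were Ephx2 (distance 0.92), of the soluble epoxide hydrolase, Plbd1 (1.07), of a phospholipase B-like protein, and the cytokine gene Il15 (1.12), where the median gene lay at 6.52. Ephx2 measured 9.33, 7.74, 8.10 and 8.55 in knockout, against 11.55, 11.78 and 11.48 in wild type. All 3 genes were highest within knockout in array 1, but they were picked by nearness over these same arrays. Array 1 was also the knockout array nearest to wild type on the leading principal component, so the shared high array is no separate finding. The genes nearest to Irs1 were Rnaseh2c (0.20), Ctps (0.21), of CTP synthase, and Ptrhd1 (0.23), where the median gene lay at 1.94. Both medians mostly restate the change of Grb14 or Irs1, since a gene that did not change lies about that far away. Nearness here mostly marks a log2 fold change of like size (Ephx2 -3.17, Plbd1 -2.98, Il15 -2.72). It does not by itself show a shared pattern across arrays.

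**Figure D2:**
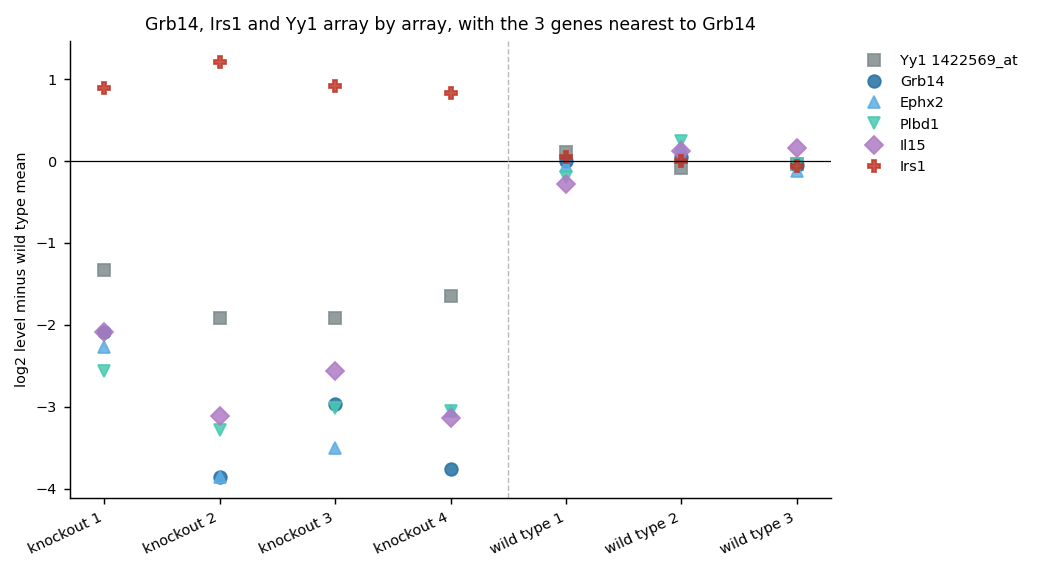
Level of Yy1 (1422569_at), Grb14, its 3 nearest genes and Irs1 on each array, as log2 units relative to the gene's wild type mean on the vertical axis. Knockout arrays are left of the dashed line and wild type arrays right of it. In knockout array 1, Grb14, Ephx2, Plbd1, Il15 and this probe set of Yy1 all lie nearest to wild type. The 3 genes were picked by nearness to Grb14 on these arrays, and array 1 also lay nearest to wild type on the leading principal component.

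Grb10, the relative of Grb14 that is known as an imprinted gene, gave a different answer with each of its 3 probe sets. The brightest, 1425458_a_at, measured 11.04, 11.15, 10.90 and 11.06 in knockout, against 10.79, 10.34 and 10.60 in wild type, and rose by 0.46 (SE 0.11, adjusted p = 0.0133, limma). In contrast, 1430164_a_at measured 6.64, 6.88, 6.65 and 6.49 in knockout, against 7.19, 7.28 and 7.27 in wild type, and fell by 0.58 on the log2 scale (SE 0.09, adjusted p = 0.00185, limma). The genotypes did not overlap in either. The dimmest, 1425457_a_at, measured 5.38 to 5.84 in knockout and 5.49 to 5.59 in wild type (log2 fold change 0.04, 95% interval -0.19 to 0.27). The ratio of the rising to the falling probe set changed by 1.04 log2 units between the genotypes, and averaging all 3 gave -0.03 (adjusted p = 0.776, limma). Which transcripts each probe set reads is not given in the files, so no direction can be given for the gene as a whole.

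The catalytic subunit of phosphoinositide 3-kinase rose in both its probe sets. Pik3ca 1460326_at measured 11.28, 11.30, 11.21 and 11.33 in knockout, against 10.87, 10.79 and 10.83 in wild type, and rose by 0.45 (SE 0.05, adjusted p = 0.000542, limma), or 1.37-fold. Pik3ca 1423144_at measured 10.26, 10.09, 10.14 and 10.24 in knockout, against 9.63, 9.59 and 9.62 in wild type, and rose by 0.57 (SE 0.06, adjusted p = 0.000322, limma). These were narrow groups with wide gaps between them: the SD lay between 0.02 and 0.08 in either genotype.

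The regulatory subunit moved the other way in 1 of its 3 probe sets. Pik3r1 1425514_at measured 7.23, 7.14, 6.74 and 7.35 in knockout, against 7.76, 7.63 and 7.58 in wild type, and fell by 0.54 on the log2 scale (SE 0.13, adjusted p = 0.017, limma). With wild type array 1 left out it missed the threshold (adjusted p = 0.0705, limma), and likewise with wild type array 2 left out (adjusted p = 0.0548, limma). Pik3r1 1425515_at measured 7.75, 7.82, 7.37 and 7.80 in knockout, against 8.08, 7.91 and 7.89 in wild type, with no overlap and a log2 fold change of -0.27 (95% interval -0.53 to -0.01) that missed the threshold (adjusted p = 0.114, limma). Pik3r1 1451737_at measured 7.40 to 7.57 in knockout and 7.53 to 7.74 in wild type, with a log2 fold change of -0.09 (95% interval -0.26 to 0.08). Knockout array 3 was the lowest of the 7 arrays in all 3 probe sets. The gene has an alternative start, known to give shorter forms of the subunit, and which form each probe set reads is not given in the files.

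Akt1 rose in both its probe sets and Akt2, the form most tied to glucose uptake, in 1 of 2. Akt1 1416657_at measured 9.49, 9.65, 9.67 and 9.77 in knockout, against 9.23, 9.11 and 9.15 in wild type, and rose by 0.48 (SE 0.07, adjusted p = 0.00184, limma), or 1.39-fold. Akt1 1425711_a_at measured 8.69, 8.78, 8.74 and 8.96 in knockout, against 8.49, 8.52 and 8.58 in wild type, and rose by 0.26 (SE 0.07, adjusted p = 0.0291, limma). The groups did not overlap in either, but the smaller rise lost its call without knockout array 2 or any 1 of the wild type arrays (adjusted p = 0.0542 to 0.0928, limma). Akt2 1424480_s_at, of a probe set type that can read more than 1 transcript or gene, measured 10.74, 10.72, 10.71 and 10.75 in knockout, against 10.43, 10.54 and 10.64 in wild type. Its rise of 0.19 (SE 0.06, adjusted p = 0.0454, limma) missed the threshold when any 1 array but wild type array 3 was dropped (adjusted p = 0.0689 to 0.137, limma). Akt2 1421324_a_at measured 8.09 to 8.13 in knockout and 7.95 to 8.31 in wild type, with a log2 fold change of -0.02 (95% interval -0.21 to 0.17).

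Tsc2, the brake on TOR that Akt inhibits, fell slightly. It measured 9.18, 9.10, 9.14 and 8.98 in knockout (1452105_a_at), against 9.42, 9.26 and 9.42 in wild type, and fell by 0.26 on the log2 scale (SE 0.07, adjusted p = 0.0225, limma), which left 83.3% of the wild type signal. The genotypes did not overlap, but the call was lost without knockout array 2 or 4 or wild type array 1 or 3 (adjusted p = 0.0506 to 0.0801, limma).

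**Figure D3:**
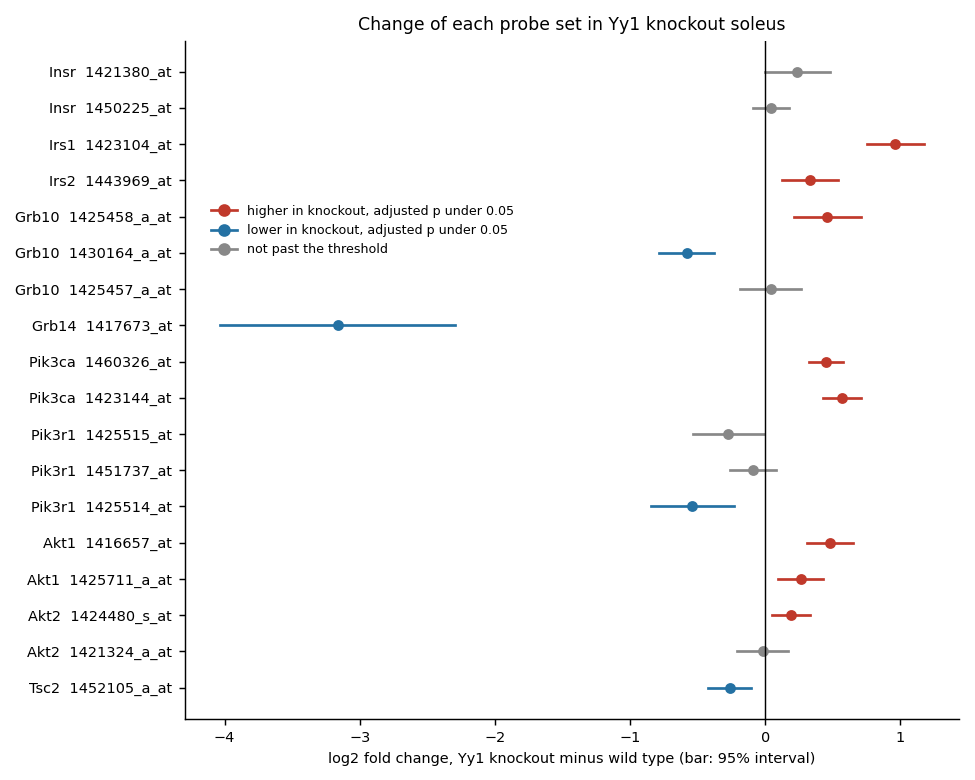
Log2 fold change of each probe set, knockout minus wild type, on the horizontal axis, with its 95% interval from limma as a bar. Red points rose and blue points fell (adjusted p under 0.05), and grey points did not pass. Grb14 stands at -3.16, and all other points lie between -0.58 and 0.96.

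Changes were also set against each other within each array, so that array-wide scaling cancels. The 8 pairs were chosen after the values were seen, so their differences are given as a description, with no test. The SE of a ratio comes from the spread of the arrays within each genotype and not from limma. Irs1 over Irs2 was higher in knockout by 0.63 log2 units (SE 0.14), Pik3ca over Pik3r1 by 0.72 (SE 0.09) at their brightest probe sets, and Akt1 over Tsc2 by 0.74 (SE 0.10). The genotypes did not overlap in these 3 ratios. Grb10 over Grb14, the pair of adaptors, was higher by 3.62 with the rising Grb10 probe set 1425458_a_at and by 2.58 with the falling one, 1430164_a_at. Akt1 over Akt2 was higher by 0.29 (SE 0.10), and its groups overlapped. The other two pairs were probe sets of 1 gene: the Grb10 pair given above, and Pik3r1 1425514_at over 1451737_at, which changed by -0.45 log2 units (SE 0.10).

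**Figure D4:**
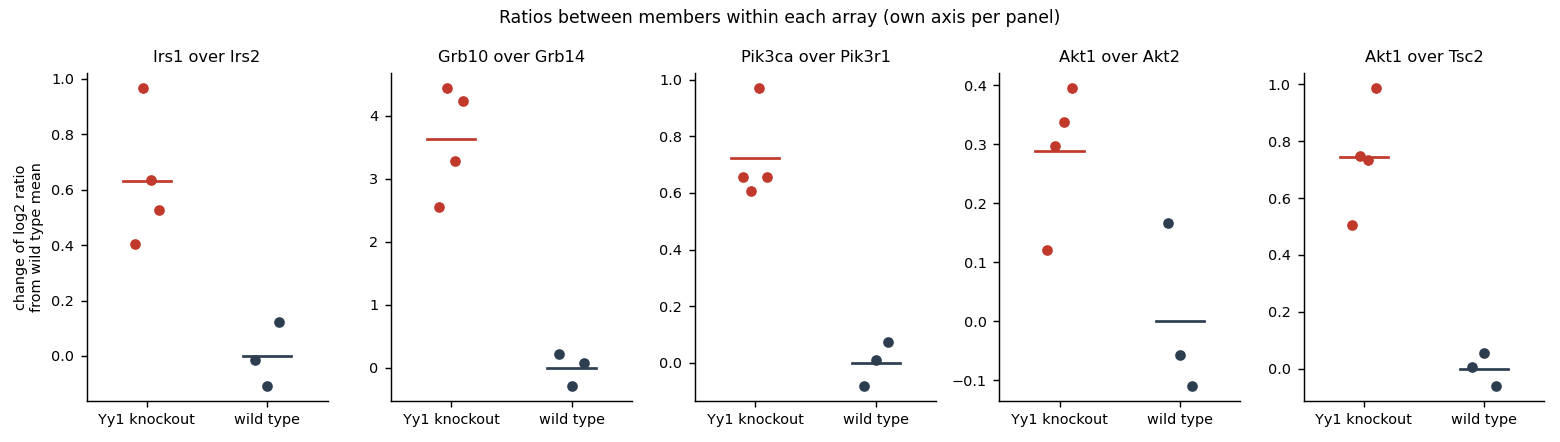
Log2 ratio of the brightest probe sets of a pair of genes within each array, relative to the wild type mean of that ratio, on the vertical axis, with Yy1 knockout (red, 4 arrays) left of wild type (dark, 3 arrays). Lines are group means, and each panel has its own range. The groups lie apart for Irs1 over Irs2, Grb10 over Grb14, Pik3ca over Pik3r1 and Akt1 over Tsc2, and overlap for Akt1 over Akt2.

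Other genes of the pathway were counted in 4 lists written from general knowledge, with the brightest probe set standing for each gene. Of 78 listed, 66 were measured. Of these, 17 rose and 11 fell, where 17% of all 12393 genes rose and 16% fell (32.9% together). Their median log2 fold change was 0.02, against 0.01 over all genes. Without wild type array 2, 11 of the 66 rose, and over all genes 1592 rose instead of 2103. Together 42.4% were called. The share that fell was near that of all genes, and the share that rose was above it. The lists were chosen with earlier results of these data known, so these counts do not set the pathway apart. In the order of the lists below, 40.9%, 35.7%, 37.5% and 57.1% were called, to be read beside the 32.9% of all genes. The genes named below had the largest changes of their list or were fixed by name.

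Next to the receptor, 6 of 22 genes rose and 3 fell (median 0.03). Socs3, which shuts off cytokine and insulin receptors, measured 9.51, 8.27, 7.91 and 7.51 in knockout, against 6.74 to 7.09 in wild type, and rose by 1.35 (SE 0.40, adjusted p = 0.0323, limma), with 1.08 and 1.15 at its other probe sets. It was highest in knockout array 1, and lost its call without knockout array 2 or any 1 of the wild type arrays (adjusted p = 0.0717 to 0.107, limma). The IGF1 receptor gene Igf1r, whose product shares these substrates, rose by 0.55 (SE 0.13) at its brightest probe set, with 0.13 at the other, and missed the threshold without wild type array 2 (adjusted p = 0.0572, limma). Ptpn1, of a phosphatase that acts on the insulin receptor, rose by 0.43 (SE 0.06), with 0.04 at its other probe set. Ptprf, of a receptor-type phosphatase, rose by 0.35 (SE 0.10) with overlapping groups, measured 0.02 and 0.35 at its other probe sets, and lost its call without knockout array 2, 3 or 4 or wild type array 2 or 3 (adjusted p = 0.0547 to 0.094, limma). The ubiquitin ligase gene Cbl changed by -0.47 (SE 0.09; 0.08 at its other probe set), the docking protein gene Dok4 by -0.39 (SE 0.08) and the Ras exchange factor gene Sos1 by -0.30 (SE 0.08; -0.10 and 0.0044 at its others). Sos1 missed the threshold without wild type array 1 (adjusted p = 0.0657, limma).

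Around the kinases, 4 of 14 genes rose and 1 fell (median 0.00071). Pdpk1, of the kinase that phosphorylates Akt at the membrane, rose by 0.52 (SE 0.08, adjusted p = 0.00168, limma), and by 0.28 at its other probe set. All 3 tribbles pseudokinase genes rose: Trib3, known to bind Akt, by 0.70 (SE 0.12; 0.88 at its other), Trib2 by 0.48 (SE 0.13; 0.19 at its other) and Trib1 by 0.44 (SE 0.09; -0.04 at its other probe set). Trib2 missed the threshold without wild type array 2 (adjusted p = 0.0789, limma). The lipid phosphatase gene Inppl1 changed by -0.27 (SE 0.08) and lost its call without knockout array 2 or 4 or any 1 of the wild type arrays (adjusted p = 0.0683 to 0.12, limma).

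In the TOR branch, 3 of 16 genes rose and 3 fell (median 0.07). Ddit4l, of a TOR inhibitor of striated muscle, measured 10.49, 10.08, 10.09 and 10.37 in knockout, against 11.78, 11.73 and 11.63 in wild type. It changed by -1.45 (SE 0.11, adjusted p = 6.66e-05, limma), and by -1.57 at its other probe set. Sesn1, of the TOR inhibitor sestrin, went the other way and rose by 0.85 (SE 0.11), with 0.68 and 0.77 at its other probe sets. Rragc, of a small GTPase that signals amino acids to TOR, rose by 0.35 (SE 0.06), and the S6 kinase gene Rps6kb2 by 0.21 (SE 0.07). The TOR subunit gene Mlst8 changed by -0.48 (SE 0.10; -0.09 at its other probe set) and the translation repressor gene Eif4ebp2 by -0.31 (SE 0.09; -0.87 to 0.07 at its others). Rps6kb2 lost its call without knockout array 2, 3 or 4 or wild type array 1 or 2 (adjusted p = 0.0502 to 0.164, limma), and Eif4ebp2 without knockout array 2 or 3 or any 1 of the wild type arrays (adjusted p = 0.0547 to 0.0845, limma). Mtor itself measured -0.12 (SE 0.09, adjusted p = 0.371, limma; -0.23 at its other probe set) and Tsc1, the partner of Tsc2, -0.06 (SE 0.07, adjusted p = 0.549, limma; 0.01 at its other).

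Among genes that act below Akt, 4 of 14 rose and 4 fell (median -0.0033), and the 4 that fell were Hk2, Tbc1d1, Gys1 and Slc2a4. Hexokinase 2 (Hk2), which traps glucose in the fibre, measured 12.58, 12.16, 12.38 and 12.23 in knockout, against 13.19, 13.15 and 13.20 in wild type, and changed by -0.84 (SE 0.10, adjusted p = 0.000358, limma). Tbc1d1, of a Rab regulator of glucose transporter traffic, changed by -0.79 (SE 0.10; -0.26 to -0.13 at its others) and the glycogen synthase gene Gys1 by -0.60 (SE 0.10; -0.78 at its other). The insulin-responsive glucose transporter gene Slc2a4 changed by -0.21 (SE 0.06; -0.45 at its other) and lost its call without any 1 array except knockout array 1 (adjusted p = 0.051 to 0.102, limma). Mdm2, a ubiquitin ligase of p53, rose by 0.56 (SE 0.07; 0.53 at its other), the glycogen synthase kinase gene Gsk3b by 0.42 (SE 0.09), the cell death gene Bad by 0.31 (SE 0.07; 0.47 at its other) and the transcription factor gene Foxo3 by 0.27 (SE 0.07; 0.13 and 0.41 at its others). Bad missed the threshold without wild type array 3 (adjusted p = 0.0532, limma), and Foxo3 without knockout array 2 or 4 or wild type array 2 (adjusted p = 0.0514 to 0.0579, limma). Foxo1 measured -0.14 (SE 0.08, adjusted p = 0.234, limma; -0.08 to -0.04 at its others), and Tbc1d4, fixed by name, was not analysed here.

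**Figure D5:**
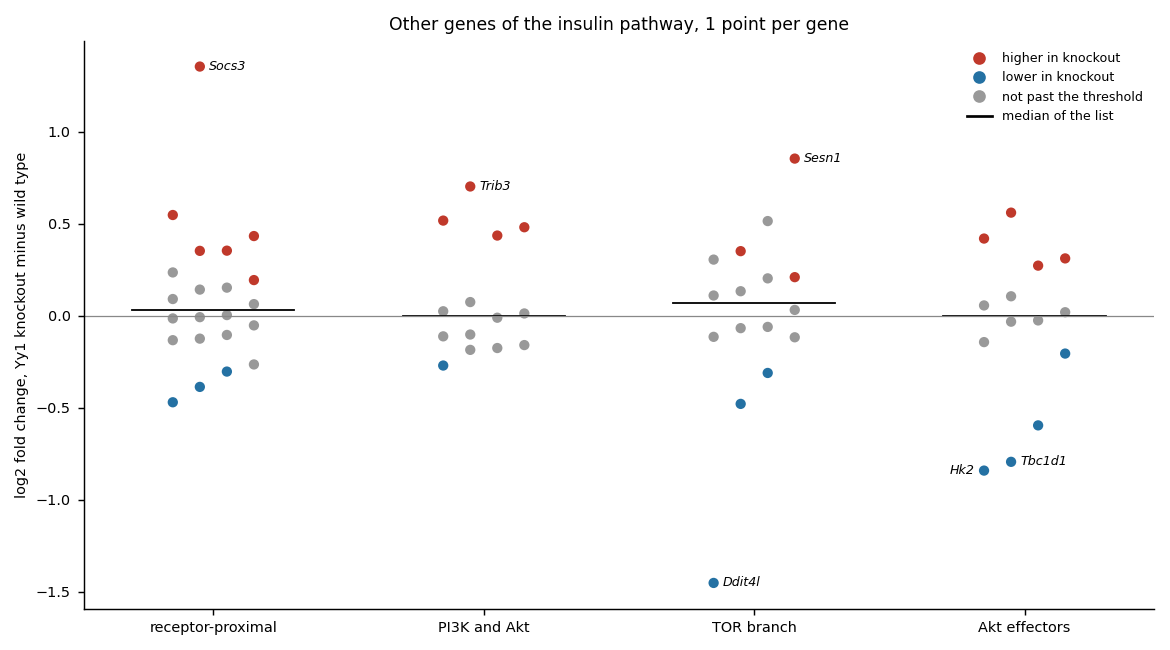
Log2 fold change, knockout minus wild type, of 66 other genes of the insulin pathway, 1 point per gene, in 4 lists along the horizontal axis. Red points rose, blue points fell (adjusted p under 0.05) and grey points did not pass, and black lines are list medians. Socs3 (1.35) and Ddit4l (-1.45) stand farthest from 0.

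Macrophage and endothelial markers moved with the genotype throughout their lists, and those of other cell types only in part. Over all genes, 17% rose and 16% fell. All 8 macrophage markers rose, and their summed intensity was 6927 to 11378 in knockout, against 3206 to 3847 in wild type; their dimmest, Fcgr1, averaged 5.44 in knockout and 4.94 in wild type. All 8 endothelial markers fell, with sums of 2238 to 2517 in knockout, against 4515 to 4848 in wild type. Of 8 fibroblast markers 5 rose and none fell (sums 23453 to 32944 in knockout, 18997 to 22520 in wild type). Of 5 adipocyte markers 1 rose and 2 fell (sums 7643 to 10646 in knockout, 14201 to 15585 in wild type). Fabp4 made up most of the adipocyte sum and fell (-0.72, SE 0.09), as did Lep (-1.88, SE 0.35), while Retn rose by 1.06 (SE 0.21). Adipoq (-0.45, adjusted p = 0.267, limma) and Cidec (-0.82, adjusted p = 0.0576, limma) did not pass the threshold. Of 4 Schwann cell markers 1 fell (sums 1504 to 1845 in knockout, 1951 to 2458 in wild type), or 25% against 32.9% of all genes called. It was Mbp (-1.73, SE 0.31), while Pmp22 (-0.04), S100b (-0.34) and Sox10 (0.08) did not pass the threshold. All of these cell types also use insulin signalling genes, and their part in the changes above was not tested. The 10 skeletal muscle markers, slow myosin Myh7 and muscle creatine kinase Ckm among them, summed to 356769 to 368949 in knockout and 350484 to 364597 in wild type, with 5 higher and 3 lower in knockout. Those higher were Myh7, Tnni1, Tnnt1, Tnnc1 and Des, and those lower were Ckm, Myh2 and Mb. The sums overlapped although single markers moved, from Myh2 (-0.46, SE 0.11) to Des (0.54, SE 0.05), so they do not show that muscle transcripts were unchanged.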

How the data were processed

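Total RNA from soleus was extracted with Trizol, labelled with biotin by in vitro transcription and hybridised to one-colour Affymetrix arrays, per the labels' protocols. The authors deposited 1 intensity per probe set and array, made with RMA per the submitters' processing notes; the labels name neither its software nor its version or settings. The values were linear (array medians 139.1 to 143.2), and were taken to log2(value + 1). Precision is limited by the number of arrays, 7. The table held 22690 probe sets, of which 64 controls were left out, and 0 columns outside the series. At most 1819 values were equal, in every digit given, between any 2 arrays.

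Probe sets were named from the platform annotation where it gave 1 symbol (20380; 691 gave several and 1555 none), and symbols outside the 10 genes were updated through Entrez identifiers (12369 genes matched a RefSeq table). limma 3.58.1 in R 4.3.3 (lmFit and eBayes, two-sided) was fitted to all 22626 probe sets, and for the pathway lists to 12393 genes by their brightest probe set, with Benjamini-Hochberg adjustment over each table and no filter. P-values measure the spread between these arrays, which may be technical. No scan date was used, so batches could not be checked. The script was tested on simulated data.

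All probe sets of the 10 genes and of Yy1 are reported. From each pathway list, up to 4 called genes in each direction with the largest changes are named, beside a few fixed by name, and markers are given by counts and sums. The 10 genes and the lists were chosen with earlier results of these data known. Arrays 1 to 3 of both genotypes share replicate numbers, but deviations from the group means of same-numbered arrays correlated at only -0.10 to 0.05, so the reported fit has no replicate block. Alternatives were another pseudocount, quantile normalization, median centring, a filter on dim probe sets, a variance trend, the replicate block, averaged probe sets and leaving out each array. One gene fixed by name is not reported here.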

Additional observations from a re-analysis of the deposited data

Results flagged for a closer look

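A knockout array stood apart from the other 3 in 3 of the 18 probe sets by Dixon's gap test, which chance alone flags in about 1 group in 20. The share flagged among all probe sets was not counted, and the Pik3r1 cases share gene and array. No excess of outliers can be read from the 3. In Pik3r1 1425515_at, knockout array 3 measured 7.37 where the nearest other knockout array measured 7.75, a gap of 0.851 of the group's range. In Pik3r1 1451737_at the same array measured 7.40 with the nearest at 7.56, a gap of 0.902 of the range. In Akt2 1421324_a_at, knockout array 1 measured 8.09 with the nearest at 8.12, a gap of 0.947 of a range of only 0.04 log2 units. Knockout arrays 3 and 4 held the same value there, 8.13.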

How the results depend on the processing

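Of the 12 probe sets called, 6 kept their call and direction under every alternative run: those of Irs1 (0.88 to 1.01), Grb14 (-3.52 to -2.93) and Pik3ca, Akt1 1416657_at and Grb10 1430164_a_at. The other 6 lost it under at least 1. The fit with the replicate number as a block also gives knockout array 4 no weight, since no wild type array has that number, so the block and the loss of that array act together in it. It gave 5 probe sets higher in knockout instead of 8, against 7 without knockout array 4 and no block, and 5060 calls over all probe sets, against 5617 without that array and 6477 with all arrays. Akt2 1424480_s_at (0.19) and the fall of Tsc2 (-0.22) lost their calls both in the block fit (adjusted p = 0.159 and 0.077, limma) and without that array (0.0927 and 0.0506). Grb10 1425458_a_at (0.45, adjusted p = 0.0513) and Akt1 1425711_a_at (0.20, adjusted p = 0.0963) lost theirs in the block fit and kept it without that array (0.0352 and 0.0425). The arrays share only a number. Leaving out 1 array gave 6 to 8 probe sets higher and 2 to 4 lower, with 2 lower without wild type array 1. Over all probe sets it gave 2391 to 3101 higher and 2487 to 3123 lower. It gave 11 to 18 pathway genes higher and 8 to 11 lower, and over all genes 1592 to 2036 higher and 1579 to 1926 lower. With the probe sets of a gene averaged, Grb10 measured -0.027 in place of 0.46 at its brightest probe set, since its probe sets oppose each other, and Akt2 measured 0.09 (adjusted p = 0.365, limma). Over genes above the median level, 6 pathway genes fell instead of 11, as only 45 of the 66 were then tested, and the dim probe sets of Insr and Grb10 gave no value. Of all 6196 genes tested there, 1606 fell. Another pseudocount, quantile normalization, median centring and a variance trend changed no call among the 18 probe sets. Of 26 named pathway genes called, 12 lost the call under at least 1 alternative. Dim probe sets, those of Insr above all, limit what could be detected.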
